A study of Homo sapiens with 4 samples.

Results

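The dual-specificity phosphatase (DUSP) genes were examined in RNA-seq data of MDA-MB-231 Fluc cells, a triple-negative breast cancer line that carries a luciferase gene for imaging. Of the 13957 genes in the deposited table, 10 were members, selected by symbol: DUSP1, DUSP3, DUSP4, DUSP5, DUSP6, DUSP7, DUSP10, DUSP11, DUSP14 and DUSP16. The members were chosen from genes present in the table, so the presence of all 10 is not a result. The series held 2 libraries of cells treated with 50 μM cordycepin (3′ deoxyadenosine) for 2 h and 2 libraries of cells given the vehicle DMSO. The level of each gene was taken as the authors' log2 CPM (read counts scaled by the size of each library), which is 1 value that names no library. It was read as a mean over all 4 libraries, both groups together, and is called the mean log2 CPM. How it was averaged is not given in the sources used here. The level in either group, and the spread between libraries, therefore cannot be given from it, no difference between genes was tested, and the depth of each library is unknown. Differences between cordycepin and DMSO were not analysed here.

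Dual-specificity phosphatases remove phosphate from both the threonine and the tyrosine of their substrates. The MAP kinase phosphatases (MKPs) among them switch off ERK, JNK and p38 kinases, which need both phosphates to be active, and several MKP genes are themselves induced by the kinases they inactivate, forming a negative feedback loop. MKPs join a docking domain, which binds the kinase, to a catalytic domain, whereas the small atypical members lack the docking domain. The members were placed in 4 classes, with the MKPs divided by their known substrates and the atypical members kept together whatever their substrate. ERK-selective members were DUSP5, which is nuclear, and DUSP6 and DUSP7, which are cytoplasmic. DUSP10 and DUSP16 prefer JNK and p38. DUSP1 and DUSP4 are nuclear MKPs that act on several MAP kinases. The atypical members were DUSP3 and DUSP14, which are small phosphatases, and DUSP11, which acts mainly on the 5′ phosphates of RNA.

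The catalytic signature is shown first, because it is what all members have in common. The coding sequences of the canonical transcripts (GENCODE release 44, GRCh38) were translated and searched for a histidine and a cysteine followed, after 5 residues, by an arginine. All 10 contained 1 match. The DNA for these residues is given 5′ to 3′ in the sense of the gene for 9 members, with the codons of the histidine, cysteine and arginine in capitals.
DUSP5: CACTGTgaggctgggatctccCGT
DUSP6: CATTGCttggctggcattagcCGC
DUSP7: CACTGCctggcaggcatcagcCGC
DUSP10: CACTGCcaggctggggtgtccCGC
DUSP16: CACTGTttagctgggatctccCGC
DUSP1: CACTGCcaggcaggcatttccCGG
DUSP3: CACTGCcgggaaggttatagcCGC
DUSP14: CACTGTgctgcaggggtgagcCGC
DUSP11: CACTGTacccatggtttaaacAGG

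Each of these stretches lay within 1 exon. The cysteine, which carries out the reaction, was encoded by TGC in 5 of the 9 genes and by TGT in 4. The arginine codon was CGC in 6 genes, CGG in DUSP1, CGT in DUSP5 and AGG in DUSP11. The stretch of DUSP6 lay on the minus strand at chr12:89349503-89349526 and that of DUSP1, also on the minus strand, at chr5:172769074-172769097.

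Levels of different genes were compared per length, as log2 CPM per kb of the gene length in the deposited table. Canonical transcript length and the undivided mean log2 CPM are given as alternatives. DUSP14 (4.19 log2 CPM per kb), DUSP3 (4.10) and DUSP4 (4.08) had the highest levels per length. The lowest were those of DUSP1 (1.41 log2 CPM per kb) and DUSP16 (0.78). On the linear scale the highest member was 10.6 times the lowest, at 18.2 and 1.72 CPM per kb, and 16.4 times it when the length of the canonical transcript was used instead. The median of the 10 members was 3.21 log2 CPM per kb, and the median of all genes in the table was 2.43. Of the members, 7 were above the median of all genes and 3 were above the third quartile (3.88), while DUSP16 alone was below the first quartile (0.94). On transcript length, 7 were again above the median of all genes (3.04), but only DUSP14 was above the third quartile (4.56). DUSP1 and DUSP16 were both below the first quartile (1.53) on that scale. Of 9 further DUSP and related STYX genes with a value, 4 were above the median of all genes on the deposited length. The counts for the members therefore describe these 10 genes only.

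**Figure D1:**
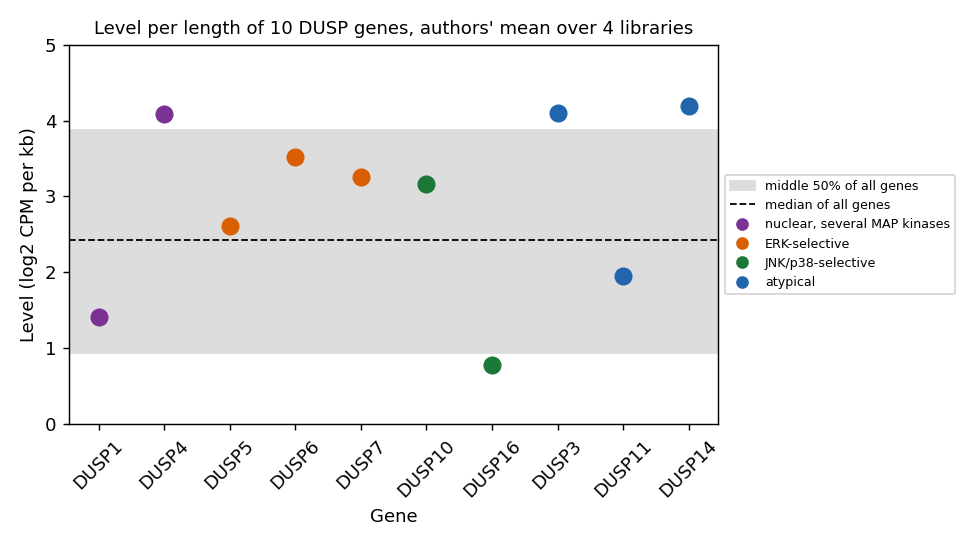
Level per length (y axis, log2 CPM per kb, authors' mean over 4 libraries) of each of the 10 genes (x axis), coloured by class, with the median (dashed) and the middle 50% (grey) of all genes. DUSP4, DUSP3 and DUSP14 sit above the grey band and DUSP16 sits below it at 0.78; there are no error bars because the table gives 1 value per gene.

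Among the ERK-selective members, DUSP6, the cytoplasmic phosphatase commonly read as a marker of ERK activity, had a level of 3.52 log2 CPM per kb, or 11.4 CPM per kb (percentile 69.3 of all genes). DUSP7, its closest relative, had 3.26 log2 CPM per kb (percentile 64.9). DUSP5, the nuclear member, had 2.61 log2 CPM per kb (percentile 53.3). As drawn from the members, this class was the tightest, with 0.91 log2 units between its highest and lowest gene. All 3 genes were above the median of all genes. On transcript length the range was 1.37 log2 units, DUSP7 was 1.33 times DUSP6, and DUSP5, at 2.64 log2 CPM per kb, was below the median of all genes (3.04). DUSP9, an ERK-selective MKP that is not among the members, had -0.36 log2 CPM per kb, so the narrow range holds for these 3 genes only. The mean log2 CPM of DUSP9 was 1.11, close to the lowest value of all genes (0.56). DUSP6 lies on chromosome 12 (89347235 to 89352501, GRCh38, minus strand), DUSP7 on chromosome 3 (52048919 to 52056571, minus strand) and DUSP5 on chromosome 10 (110497907 to 110511533, plus strand).

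The JNK/p38-selective members differed more. DUSP10, which is found in both nucleus and cytoplasm, had a level of 3.16 log2 CPM per kb (percentile 63.2). DUSP16, a mainly cytoplasmic phosphatase, had 0.78 log2 CPM per kb (percentile 22.7). The level per length of DUSP10 was thus 5.2 times that of DUSP16. They have the longest spans of the 10 genes, with DUSP10 covering 40.7 kb of chromosome 1 (221701424 to 221742089) and DUSP16 89.6 kb of chromosome 12 (12473282 to 12562863), both on the minus strand.

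The nuclear members with several substrates stood far apart. DUSP4 had a level of 4.08 log2 CPM per kb (percentile 77.9), and DUSP1, a classical early response gene, had 1.41 (percentile 32.0). The level per length of DUSP4 was 6.37 times that of DUSP1, and this was the widest gap within a class. DUSP1 has the shortest span of the 10 genes, 3.1 kb of chromosome 5 (172768096 to 172771195, minus strand). DUSP4 spans 17.6 kb of chromosome 8 (29333064 to 29350684, minus strand).

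The atypical DUSP14 and DUSP3 had high levels per length. DUSP14 (chromosome 17, 37489891 to 37513501, plus strand) had 4.19 log2 CPM per kb (percentile 79.3). DUSP3 (chromosome 17, 43766125 to 43778977, minus strand) had 4.10 (percentile 78.3). DUSP11, the RNA phosphatase (chromosome 2, 73762184 to 73780157, minus strand), was lower, at 1.95 log2 CPM per kb (percentile 41.4). Its deposited length of 3544 bases is the only one among the members that differs from the union of exons (4342 bases), and its canonical transcript has 1570 bases. On transcript length its level was 3.12 log2 CPM per kb, above the median of all genes (3.04). The level per length of DUSP14 was 4.72 times that of DUSP11.

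Compared by class, the median level was 4.10 log2 CPM per kb for the 3 atypical genes, 3.26 for the 3 ERK-selective genes, 2.74 for DUSP1 and DUSP4 and 1.97 for the 2 JNK/p38-selective genes. Of the summed CPM per kb of the 10 members, the atypical genes made up 40.6%, the ERK-selective genes 28.1%, DUSP1 with DUSP4 20.2% and the JNK/p38-selective genes 11%. The ranges overlapped. DUSP10 was above DUSP5. DUSP11 was below all 3 ERK-selective genes, but on transcript length it was 1.4 times DUSP5. Further genes of the family in the table, from DUSP18 (-1.24 log2 CPM per kb) to DUSP23 (4.59), were not placed in these classes. With 2 or 3 genes per class, and no replicate values, the order of the medians and the shares describe these genes only.

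In the order of levels per length, the first 3 genes were nearly level, with DUSP14 at 1.06 times DUSP3 and DUSP3 at 1.02 times DUSP4. On transcript length DUSP4 was 1.05 times DUSP3. DUSP6 was 1.19 times DUSP7 and DUSP7 was 1.07 times DUSP10, whereas on transcript length DUSP7 was 1.33 times DUSP6 and 1.66 times DUSP10. The remaining steps down the order were between 1.46 and 1.58 times on the deposited length. As there is no spread between libraries, it cannot be said which of these neighbours differ beyond error. In mean log2 CPM as deposited, which favours long genes, the values were 6.94 for DUSP4, 6.43 for DUSP3, 5.76 for DUSP7, 5.47 for DUSP14, 5.47 for DUSP6, 4.66 for DUSP10, 3.95 for DUSP5, 3.77 for DUSP11, 3.62 for DUSP16 and 2.42 for DUSP1. DUSP14, with a length of 2439 bases, moved from the fourth place on that scale to the first per length, and DUSP16, with 7132 bases, moved to the last.

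**Figure D2:**
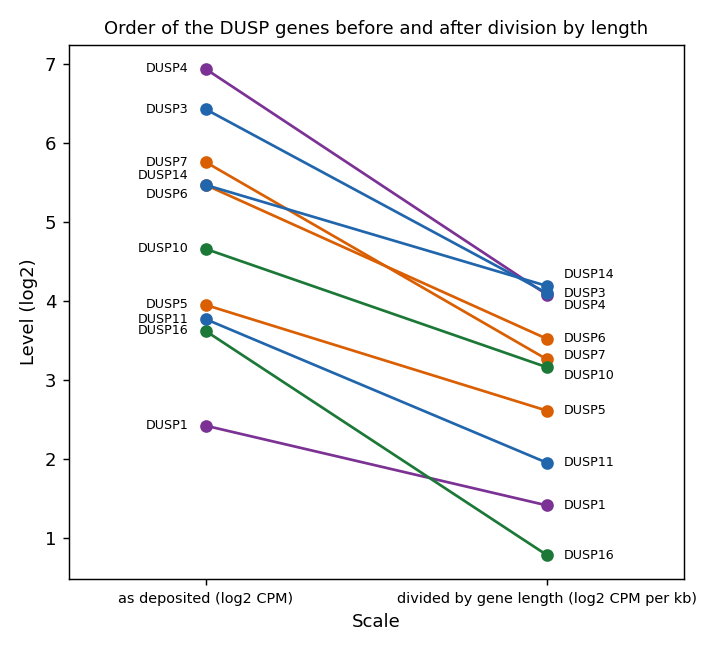
Level of each of the 10 genes (y axis, log2) as deposited in log2 CPM (left) and after division by gene length in log2 CPM per kb (right), with lines joining the same gene and colours for the classes. DUSP4 leads at 6.94 on the left, DUSP14 at 4.19 on the right, and the line of DUSP16 crosses that of DUSP1.

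The other genes of the pathway give a scale for these levels. Of 15 further DUSP and related STYX genes listed, 9 were in the table, with levels from -1.24 (DUSP18) to 4.59 log2 CPM per kb (DUSP23) and a median of 1.91. DUSP2, a nuclear MKP, had 0.43 log2 CPM per kb and DUSP9, an ERK-selective MKP, had -0.36. In mean log2 CPM, DUSP18 (0.92), DUSP9 (1.11) and DUSP2 (1.38) were close to the lowest value of all genes (0.56). DUSP8, DUSP13, DUSP15, DUSP19, DUSP21 and DUSP26 were not among the genes of the table. Of the 10 MAP kinase genes, a family that includes substrates of the MKPs, 9 were in the table, with a median of 3.09 log2 CPM per kb. The lowest of them was MAPK11, which encodes a p38, at 1.20 log2 CPM per kb. MAPK14, the main p38 gene, had 4.64 log2 CPM per kb, and the JNK genes MAPK9 and MAPK8 had 3.50 and 2.37. Of the 7 MAP kinase kinase genes, 6 were in the table, from 1.07 (MAP2K5) to 5.09 log2 CPM per kb (MAP2K2).

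The encoded catalytic domains were most alike in a pair of ERK-selective and a pair of nuclear members. Identity was computed over the 141 residues that run from 100 before the active-site cysteine to 40 after it. DUSP6 and DUSP7 were 85.8% identical there, and DUSP1 and DUSP4 were 83.0% identical. DUSP5 was nearer to DUSP1 (61.0%) than to the other ERK-selective members, DUSP6 (41.8%) and DUSP7 (42.6%). DUSP10 and DUSP16 shared 41.1%, and DUSP10 was slightly nearer to DUSP7 (42.6%). DUSP6 and DUSP7, alike in sequence, had levels per length that differed by 1.19 times, whereas DUSP1 and DUSP4, nearly as alike, differed by 6.37 times. Among the 7 MKPs the 21 pairs ranged from 34.0% to 85.8%, with a median of 41.8%. DUSP11 stood apart, with 20.6% to its nearest member, DUSP7. DUSP3 and DUSP14 had 29.8% between them, and each was nearer to an MKP. DUSP3 had 36.2% to DUSP7 and DUSP14 had 37.6% to DUSP1.

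**Figure D3:**
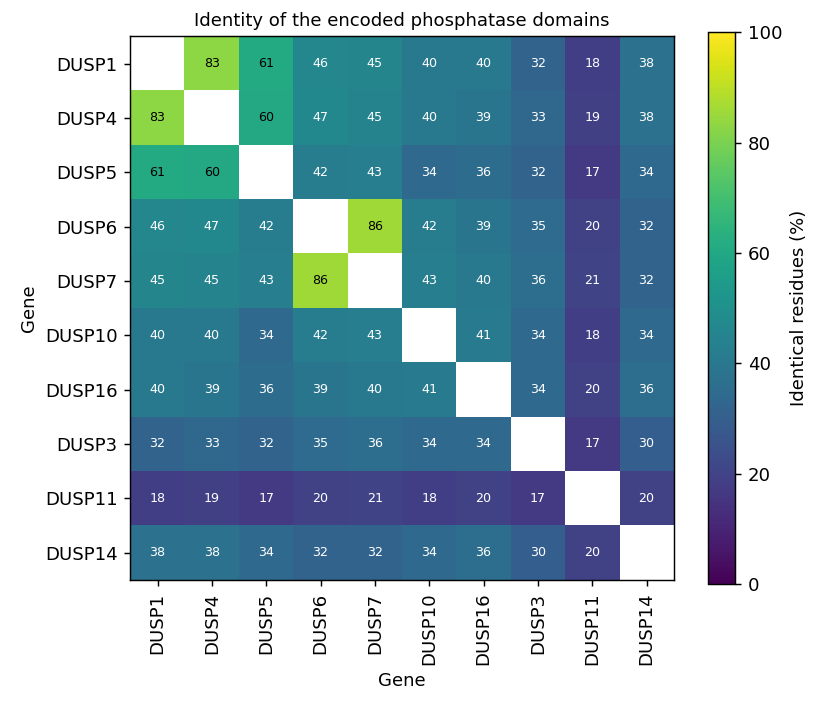
Identity (colour and number, % of 141 residues) between the catalytic domains encoded by each pair of the 10 genes, with both axes listing the genes. The 2 bright pairs are DUSP6 with DUSP7 (85.8%) and DUSP1 with DUSP4 (83.0%), and the dark row and column are DUSP11.

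The encoded proteins ranged from 185 residues for DUSP3 and 198 for DUSP14 to 665 for DUSP16. DUSP16 also has the longest stretch behind the active site, with 421 residues after the cysteine compared with 74 to 121 in the other MKPs. The genes were simple in structure. Of the 10 canonical transcripts, 8 had 3 or 4 exons, while 19% of protein-coding genes in the table had 4 exons or fewer and their median was 9. DUSP16 had 7 exons and DUSP11 had 9.

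AU-rich elements in the 3′ UTR are known to shorten the life of many early response mRNAs, so the canonical transcripts were searched for the pentamer ATTTA and the nonamer TTATTTATT, which contains the pentamer, on the sense strand. The nonamer was found in 2 of the 10 members, DUSP1 and DUSP4, and in 9.84% of the 11582 protein-coding genes with a 3′ UTR. DUSP1 had 2 nonamers in 666 bases, at bases 101 and 369 after the stop codon. They are shown with the nonamer in capitals, on the minus strand of chromosome 5 at chr5:172768645-172768669 and chr5:172768377-172768401.
DUSP1 first: gctggtccTTATTTATTtaacttca
DUSP1 second: aatataccTTATTTATTtttgtgta

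DUSP1 also had the densest pentamers, with 4 in its 3′ UTR, or 6.01 per kb, compared with a median of 1.81 per kb over all genes. DUSP14 followed with 4.77 per kb and DUSP10 with 3.04. DUSP5 and DUSP7 had none in 3′ UTRs of 1107 and 1896 bases, and DUSP6 had 1 in 2019 bases, so the ERK-selective class held 1 pentamer in all. DUSP16 had the most, 8, in 3551 bases. At least 1 pentamer was present in 8 of the 10 members (80%) and in 73.8% of all genes. The nonamer of DUSP4 was near the end of its 3′ UTR, at base 3910 of 3962. A match is a description of the sequence and says nothing of whether the element is used in these cells.

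**Figure D4:**
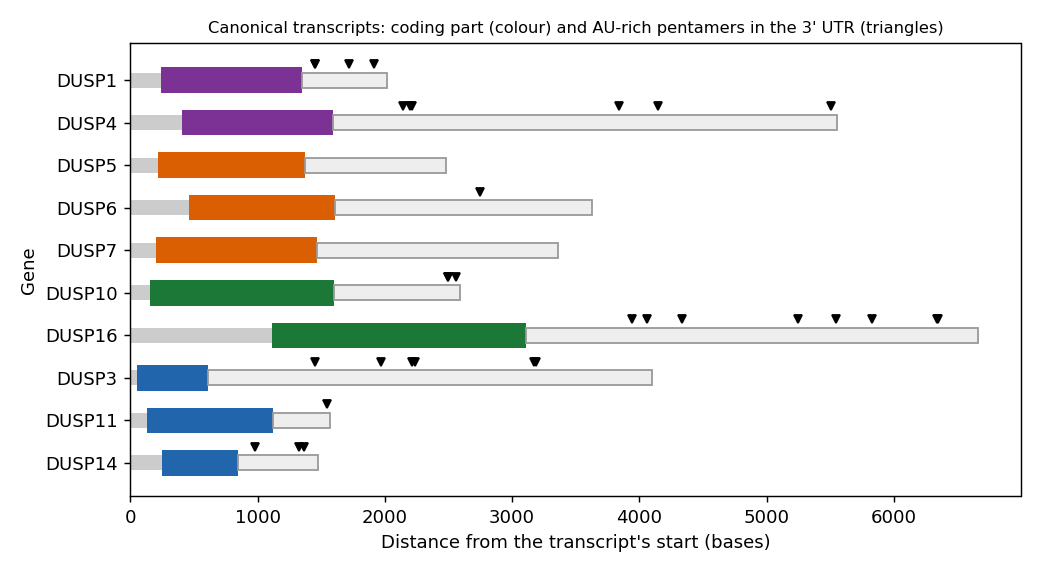
Canonical transcripts of the 10 genes to scale (x axis, bases from the transcript's start), with the coding part coloured by class, the 5′ UTR dark grey and the 3′ UTR light grey, and triangles at each AU-rich pentamer in the 3′ UTR. DUSP5 and DUSP7 carry no triangle, DUSP6 carries 1, and the pentamers of DUSP1 lie in a 3′ UTR of 666 bases; triangles of neighbouring pentamers overlap.

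Promoter sequences from RefSeq (GRCh38.p14) were matched for 8 of the 10 members, with 10 starts in all. In the 250 bases before the start, both strands were searched for the cyclic AMP response element TGACGTCA, its shorter form TGACG, the GC box GGGCGG, the TATA box TATAAA and the serum response element. DUSP1 was the only one of these 8 genes with the full cyclic AMP response element, which occurs in 1.65% of all 35116 promoters, and the only one with a TATA box, which occurs in 10.7%. The shorter form lies within the full element and was found in DUSP1 and DUSP3, and in 21.2% of all promoters. The GC box was present in 7 of the 8 genes, with DUSP6 the exception. Counted by start, it was present at 9 of the 10, compared with 42.6% of all promoters. No serum response element was found in these windows, and it occurred in 1.16% of all promoters. The sites of DUSP1 begin 125 and 30 bases before its start and are shown in capitals, on the minus strand at chr5:172771304-172771329 and chr5:172771211-172771234.
DUSP1 response element: cagggcgggTGACGTCAccgccccgt
DUSP1 TATA box: gaggccgcaTATAAAcgcgctccc

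The identity of the cells was checked with markers of this line. VIM, CD44, EGFR, AXL and FOSL1, listed as expressed in this line, were all in the table. AXL was the highest of them at 8.65 log2 CPM per kb and EGFR the lowest, with a median of 7.66. The hormone receptor genes ESR1 and PGR were not among the genes of the table. Of the other genes listed as low or absent, ERBB2 had 3.13, EPCAM 2.40 and CDH1 1.07 log2 CPM per kb, so ERBB2 was above the median of all genes.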

How the data were processed

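Duplicate stranded, ribosomal RNA-depleted libraries of cordycepin- and DMSO-treated cells were sequenced from both ends for 75 bases. Mapping to GRCh38.p13 and counting were done by the authors with rsubread. For each gene the authors deposited 1 log2 CPM, read here as a mean over the libraries. The averaging, normalization and low-count filter behind it are not given in the sources used here. Its columns of the authors' own comparison of cordycepin with DMSO (fold change, test statistic, p-value and adjusted p-value) were not used, and it holds 0 further columns of values per sample. Its gene length equalled the union of GENCODE exons for 73.5% of genes and 9 of 10 members. Level per length was the mean log2 CPM less log2 of the length in kb. Percentiles are the share of all genes below a value. Start and end matched GENCODE release 44 for 9 of 10 members. DUSP11 differed, and its coordinates are those of the deposited table. Proteins were aligned end to end (BLOSUM62, gap scores -11 and -1), and identity is per residue of the shorter sequence. Only the steps for level per length, percentile and motif counting were tested on simulated data. Members and lists were chosen with earlier results of these data known. The text names the 10 members and, from the lists of other pathway genes, the highest, the lowest and genes named after their values were seen. A result for 1 listed gene is not reported here. Python 3.11.15, numpy 2.4.6, pandas 2.3.3, Biopython 1.88 and matplotlib 3.10.9 were used.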

Additional observations from a re-analysis of the deposited data

How the results depend on the processing

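Without values per library there is no replicate spread, and a reading moved if its printed value changed. With the canonical transcript length in place of the deposited length, the class medians were 2.94 log2 CPM per kb for DUSP1 with DUSP4, 3.61 for the ERK-selective, 2.08 for the JNK/p38-selective and 4.39 for the atypical genes, in the same order. DUSP7 was then above DUSP6 (4.02 and 3.61), DUSP4 above DUSP3 (4.47 and 4.39) and DUSP11 above DUSP5 (3.12 and 2.64), and the other pairs kept their order. The highest member was then 16.4 times the lowest. Without division by length the medians were 4.68, 5.47, 4.14 and 5.47 log2 CPM in that class order. With DUSP1 counted as JNK/p38-selective and DUSP4 as ERK-selective, these medians were 1.41 and 3.39 log2 CPM per kb. The pentamer in place of the nonamer raised the members with an AU-rich motif from 2 to 8. Over whole proteins, the median identity was 34.4% among MKPs, 34.8% between MKPs and atypical members and 26.8% among atypical members. These values are per residue of the shorter protein, and the proteins differ much in length. The whole-protein medians therefore cannot be compared between these groups as likeness of entire proteins. A minimum mean log2 CPM of 1 kept 13608 genes and all 10 members. No paired analysis was possible because the deposited values are not per library, and leaving out a replicate, other normalizations and a test of cordycepin against DMSO were not run for the same reason. Unknown depth limits DUSP1 most, the member with the lowest mean log2 CPM (2.42).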

Other observations

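In the GENCODE annotation, DUSP1 is covered over its whole 3100 bases by a long noncoding RNA gene on the other strand, DUSP6 shares 1487 bases with another, and DUSP16 overlaps 2 such genes. None of these 4 genes was in the table. The libraries were stranded, and whether the authors' counting used the strand is not given in the sources used here, so reads of either partner cannot be told apart from the table. One pseudogene of the family, DUSP8P5, was in the table, with a mean log2 CPM of 1.25, although DUSP8 itself was not among its genes.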
